A study of Mus musculus with 4 samples.

Results

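The 10 genes described here are Ddit4, Txnip, Tsc22d3, Fkbp5, Per1, Foxo1, Foxo3, Btg1, Btg2 and Tob1, out of 18193 genes named on the array. They were taken as all probe sets (groups of short oligonucleotides that read 1 transcript region) whose annotated symbol is 1 of the 10, which gave 25 probe sets, and 1 further probe set that names Foxo3 together with another gene was set aside. The genes were selected on log2 intensities of these same 4 arrays, with their differences in every comparison known, so all their values below are a description and none is tested. Expression was measured on Affymetrix mouse arrays in LSK cells, the bone marrow fraction without mature lineage markers that is positive for c-Kit and Sca-1 and holds the stem cells, and in MP cells, the Sca-1-negative myeloid progenitors. There were 4 groups of 1 array each. Wild-type (WT) mice were Smo flox/flox, Mx1Cre-, and Smo-deficient mice were Smo flox/flox, Mx1Cre+, so the controls carry the floxed alleles of the hedgehog transducer gene Smo but no Cre. All animals, controls included, received the interferon inducer polyI:C at 20 ug/g in 3 intraperitoneal doses, and marrow was collected 6 weeks afterwards. The Mx1 promoter that drives Cre answers to interferon in many cell types, so deletion is not limited to blood cells. Marrow of 4 mice of both sexes was pooled per genotype and each pool was sorted into both populations. The age of the mice is not given in the labels. The strain is labelled C57BL/6x129 for WT LSK, and the label ends in 130, 131 and 132 for Smo-deficient LSK, WT MP and Smo-deficient MP.

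Ddit4 (also known as REDD1) is a stress-induced protein that restrains the growth kinase complex mTORC1 through the TSC1 and TSC2 proteins, and its transcription answers to glucocorticoids, hypoxia, nutrient stress and FoxO factors. FoxO transcription factors are excluded from the nucleus when AKT is active, and they are known for keeping blood stem cells quiescent and resistant to oxidative stress. Glucocorticoids act through the receptor Nr3c1, and Tsc22d3, Fkbp5 and Per1 are among its best known direct targets. Btg1, Btg2 and Tob1 belong to 1 family of antiproliferative proteins that bring the CCR4-NOT deadenylase to messenger RNAs.

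Ddit4, Txnip and Btg1 were picked for their unlike patterns on their brightest probe sets, without a measure of how far all 10 patterns differ. Ddit4 was low on 1 array alone and Txnip was level on all 4. Btg1 had the largest rise without Smo of the 10 genes in both populations. The 250 bases before the RefSeq start of each are therefore shown, 5′ to 3′ on the gene's strand, on GRCm38.p6. Capitals mark the searched motifs that were found. The windows are chr10:59951771-59952020 (minus strand) for Ddit4, chr3:96557707-96557956 (plus strand) for Txnip and chr10:96616751-96617000 (plus strand) for Btg1.
Ddit4: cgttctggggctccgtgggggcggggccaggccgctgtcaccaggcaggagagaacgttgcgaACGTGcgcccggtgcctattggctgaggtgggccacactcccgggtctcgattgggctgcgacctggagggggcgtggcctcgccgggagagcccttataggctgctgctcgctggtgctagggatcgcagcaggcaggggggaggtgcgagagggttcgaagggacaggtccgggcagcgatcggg
Txnip: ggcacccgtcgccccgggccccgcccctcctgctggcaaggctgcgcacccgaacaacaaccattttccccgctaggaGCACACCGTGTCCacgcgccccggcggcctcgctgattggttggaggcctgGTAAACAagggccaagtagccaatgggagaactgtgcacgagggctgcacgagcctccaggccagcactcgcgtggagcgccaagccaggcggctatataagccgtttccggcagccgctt
Btg1: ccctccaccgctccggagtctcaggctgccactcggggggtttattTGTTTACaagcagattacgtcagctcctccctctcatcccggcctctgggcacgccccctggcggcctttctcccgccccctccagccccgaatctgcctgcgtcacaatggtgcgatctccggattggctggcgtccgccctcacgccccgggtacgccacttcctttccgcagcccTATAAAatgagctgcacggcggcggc
In these windows Ddit4 holds the hypoxia core ACGTG at 187 to 183 bases before the start. Txnip holds the FoxO element GTAAACA at 121 to 115 bases before the start and, at 172 to 160, 1 match to a relaxed form of the element bound by the glucocorticoid receptor, the half-sites GNACA and TGTNC with 3 bases between them. Btg1 holds the FoxO element on the opposite strand at 204 to 198 and a TATA box, TATAAA, at 26 to 21.

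All 10 genes matched a RefSeq promoter entry, which gave 13 windows because Tsc22d3 has 3 and Per1 has 2. Each motif was searched on both strands. The full receptor element, AGAACA and TGTTCT with 3 bases between them, was in 0 of the 13 windows and in 0.00914% of all 32817 windows of the same length. The relaxed form was in 1 of 13 and in 0.387% of all. The FoxO element was in 2 of 13, those of Txnip and Btg1, and in 3.16% of all. The E-box CACGTG, which the clock factors bind, was in 2 of 13, those of Fkbp5 and 1 start of Per1, and in 6.02% of all. Only this exact form was searched, and imperfect or paired E-boxes were not. The hypoxia core was in 4 of 13 and in 16.6% of all, and 2 of the 4 lie inside the E-box, which contains it. The cAMP response element TGACGTCA was in 1, that of Btg2, and in 1.55% of all, while the ATF4 element TGATGNAA was in 0 and in 3.45% of all. TATAAA was in 2, those of Btg1 and Tob1, and in 12.4% of all. These are matches of letters in a short window and say nothing of binding.

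The 4 arrays had Pearson correlations from 0.980 to 0.994 over probe sets. On its brightest probe set the deleted gene Smo was at log2 intensities of 10.81 and 6.13 in WT and Smo-deficient LSK, and of 10.40 and 6.36 in WT and Smo-deficient MP, which matches the labels. Of 6 measured LSK and stem cell markers, 5 rose in LSK over MP with limma (adjusted p under 0.05), among them Procr and Mecom, and 0 fell. Kit was at 12.31 to 12.65 on all 4 arrays. The hybridisation spikes, control transcripts added before hybridisation, read lower on the Smo-deficient MP array than on the WT MP array by a log2 difference of -0.33 ± 0.12 (SD over 9 probe sets). In LSK the same difference was 0.08 ± 0.06. The poly-A spikes, bacterial transcripts that go through the labelling with the sample, gave -0.30 ± 0.14 in MP and -0.15 ± 0.15 in LSK (SD over 12 probe sets).

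Ddit4 was low on the Smo-deficient MP array and at a like level on the other 3. Its only probe set, 1428306_at, read an intensity of 1573 in WT and 2177 in Smo-deficient LSK, and of 1606 in WT and 293.8 in Smo-deficient MP. On the log2 scale these levels are 10.62, 11.09, 10.65 and 8.20. WT LSK and WT MP thus differed by -0.03, while the Smo-deficient MP array stood apart below all others. The level there was still above 7.23, the mean log2 level that a probe set had to exceed to pass the filter on dim signal.

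Within MP cells the Smo-deficient pool was lower in Ddit4 by a log2 difference of -2.45, 5.47-fold, and within LSK cells it was higher by 0.47, 1.38-fold. Of 11904 genes past the filter, Ddit4 had the second most negative genotype difference in MP. For scale, the spread of a difference was taken as the scaled median absolute deviation over probe sets of like mean level, which is a property of the 2 arrays compared and holds no replicate variation. The Ddit4 difference was 9.65 spreads below 0 in MP and 2.11 spreads above 0 in LSK. The shifts of the hybridisation spikes, -0.33, and of the poly-A spikes, -0.30, on the same array have the same sign as the Ddit4 difference of -2.45. Both shifts are smaller, and their part in that difference was not tested.

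The genotype difference of Ddit4 in LSK minus that in MP was 2.92 on the log2 scale, the largest positive value of the 11904 genes. It was 2.82 after cyclic loess and 2.86 after quantile normalization. Smo-deficient LSK exceeded Smo-deficient MP by 2.89, 7.41-fold. With 1 array per group neither value can be tested, and the single probe set leaves no second reading of the transcript. In bulk RNA of sorted cells, fewer cells that express a gene and less RNA per cell cannot be told apart.

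**Figure D1:**
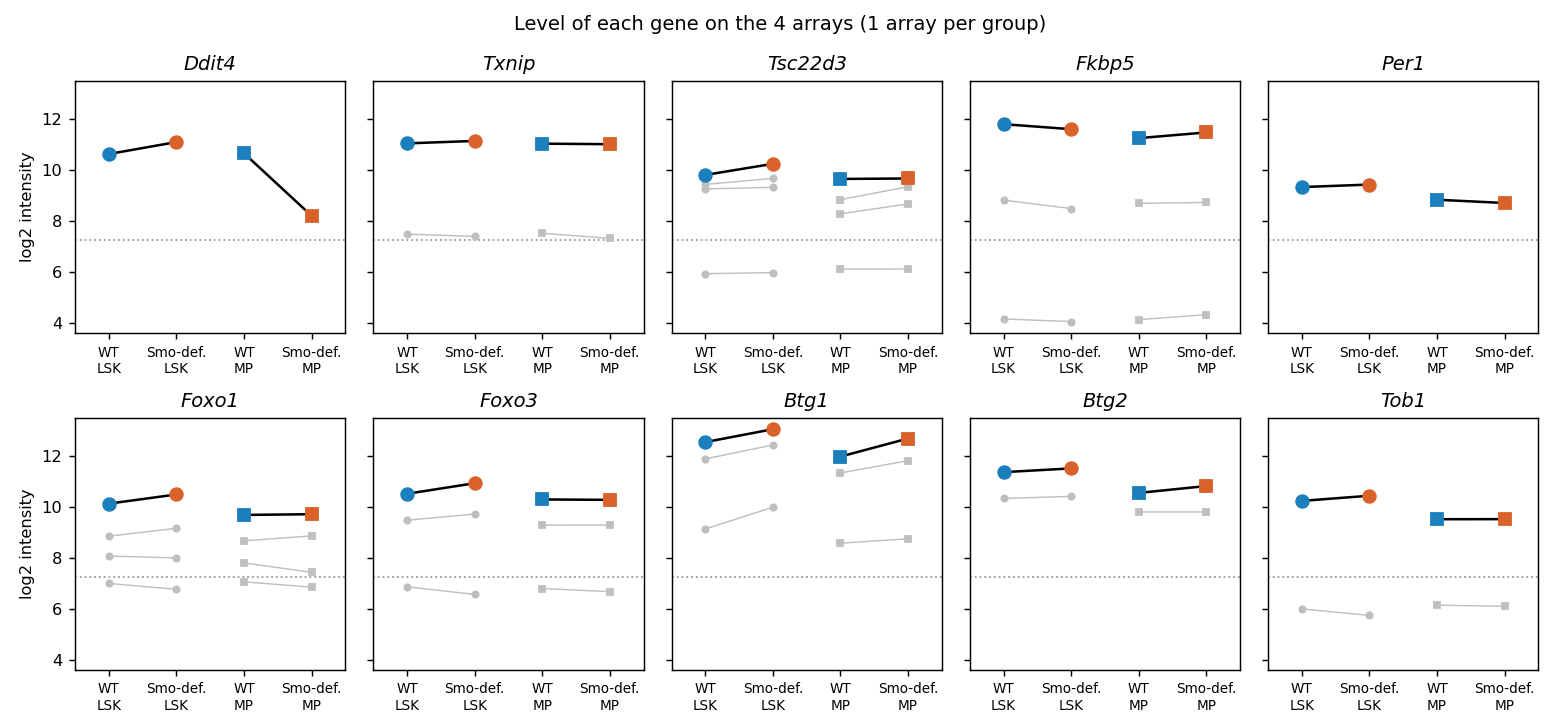
Log2 intensity of each of the 10 genes on the 4 arrays, 1 point per array. Coloured points joined by black lines are the brightest probe set of the gene, grey points are its other probe sets, circles are LSK, squares are MP, and the dotted line is the filter level of 7.23. Ddit4 at 8.20 in Smo-deficient MP is the only brightest probe set with an array more than 2-fold below the rest.

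Foxo1 and Foxo3, the FoxO factors best known from blood stem cells, were highest in Smo-deficient LSK on their brightest probe sets. Foxo1 on 1416983_s_at was at log2 levels of 10.11 (WT) and 10.47 (Smo-deficient) in LSK, and 9.67 (WT) and 9.70 (Smo-deficient) in MP. Foxo3 on 1434831_a_at was at 10.50, 10.91, 10.28 and 10.26 in the same order. On these probe sets the LSK arrays of both genes lay above the MP arrays, and within MP the genotypes were close together. Other Foxo1 probe sets differed in order. On 1416982_at WT LSK (8.84) was just below Smo-deficient MP (8.85), and on 1416981_at WT LSK (8.06) was above Smo-deficient LSK (7.99).

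The genotype difference in LSK was 0.36 for Foxo1 and 0.41 for Foxo3, each under 2 spreads (1.62 and 1.77). In MP it was 0.03 and -0.02. The second brightest probe sets gave 0.31 and 0.24 in LSK and 0.19 and 0.01 in MP. The last Foxo1 probe set past the filter, 1416981_at, went the other way in both, with -0.07 in LSK and -0.38 in MP. LSK minus MP was 0.44 for Foxo1 and 0.22 for Foxo3 in the WT pool, and 0.77 and 0.65 in the Smo-deficient pool.

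Txnip, an inhibitor of thioredoxin that also limits glucose uptake and is induced by FoxO factors and glucose, was level on all arrays. Its probe set 1415996_at read log2 levels of 11.04 (WT) and 11.13 (Smo-deficient) in LSK, and 11.03 (WT) and 11.00 (Smo-deficient) in MP. The range over the 4 arrays was 0.13, the narrowest of the 10 genes. The dimmer 1415997_at ranged over 0.20. On the Smo-deficient MP array, where Ddit4 was at its lowest, Txnip differed from WT MP by -0.02.

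The glucocorticoid targets did not share the low value of Ddit4 in Smo-deficient MP. Tsc22d3, the leucine zipper protein GILZ, was at log2 levels of 9.80 (WT) and 10.24 (Smo-deficient) in LSK, and 9.64 (WT) and 9.66 (Smo-deficient) in MP on 1425557_x_at. Fkbp5, a co-chaperone that lowers the hormone affinity of the glucocorticoid receptor, was at 11.79, 11.59, 11.24 and 11.47 on 1416125_at. Per1, a repressor of the circadian clock, was at 9.32, 9.42, 8.83 and 8.70 on 1449851_at, its only probe set. In MP the Smo-deficient array thus read higher than WT for Tsc22d3 and Fkbp5 and lower for Per1, with differences of 0.02, 0.22 and -0.13.

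Tsc22d3 has several transcripts, and its probe sets differed in where the gene was higher. The genotype difference in LSK was 0.44 on 1425557_x_at, 0.24 on 1420772_a_at and 0.07 on 1425281_a_at, while in MP it was 0.02, 0.51 and 0.39. The ending _x_at marks a probe set whose oligonucleotides may read other transcripts too. On all 3 probe sets LSK exceeded MP, by 0.16 to 0.98 in WT and by 0.33 to 0.65 in the Smo-deficient pool. The remaining one, 1444365_at, stayed below the filter level, at 5.93 to 6.11.

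On brightest probe sets, Fkbp5 was the only gene of the 10 with a lower level in Smo-deficient LSK than in WT LSK, by -0.20 on 1416125_at and by -0.33 on 1448231_at. In MP the same probe sets gave 0.22 and 0.04. The genotype difference in LSK minus that in MP was -0.42 and -0.36, opposite in sign to the 2.92 of Ddit4. For Per1 it was 0.23, with LSK above MP by 0.50 in WT and 0.72 in the Smo-deficient pool.

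Btg1 was higher in the Smo-deficient pool in both populations. Its probe set 1437455_a_at read log2 levels of 12.53 (WT) and 13.03 (Smo-deficient) in LSK, and 11.96 (WT) and 12.67 (Smo-deficient) in MP. On this probe set both Smo-deficient arrays were above both WT arrays. On the other 2 probe sets WT LSK was above Smo-deficient MP, with 11.87 against 11.80 on 1426083_a_at and 9.12 against 8.73 on 1442018_at. The genotype difference was 0.51 in LSK, 1.42-fold, and 0.71 in MP, 1.63-fold, at 3.23 and 3.74 spreads.

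A second probe set of Btg1, 1426083_a_at, gave 0.54 in LSK and 0.48 in MP. The last, 1442018_at, gave 0.85 and 0.17, so the size in MP depended on the probe set while the sign did not. LSK exceeded MP on all 3 probe sets, by 0.55 to 0.57 in WT and by 0.37 to 1.24 in the Smo-deficient pool.

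Btg2 and Tob1 differed more by population than by genotype. Btg2, which is also a p53 target, was at log2 levels of 11.35 (WT) and 11.49 (Smo-deficient) in LSK, and 10.53 (WT) and 10.80 (Smo-deficient) in MP on 1448272_at. Tob1 was at 10.22, 10.42, 9.50 and 9.50 on 1423176_at. For both genes the LSK arrays lay above both MP arrays. The genotype difference was 0.15 in LSK and 0.27 in MP for Btg2, and 0.20 and 0.00 for Tob1.

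LSK minus MP was 0.81 in WT and 0.69 in the Smo-deficient pool for Btg2, and 0.72 and 0.92 for Tob1. The other Btg2 probe set, 1416250_at, gave 0.53 and 0.61. The other Tob1 probe set, 1440844_at, was dim, at log2 levels from 5.73 to 6.13.

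The 10 genes were all past the filter on their brightest probe set, and 20 of their 25 probe sets passed. The 5 that did not belong to Tsc22d3, Fkbp5, Foxo1, Foxo3 and Tob1, and their differences between genotypes ran from -0.30 (Foxo3, 1450236_at) to 0.04 (Tsc22d3, 1444365_at) in LSK and from -0.21 (Foxo1, 1456529_at) to 0.20 (Fkbp5, 1447736_at) in MP. Of the 7 genes with more than 1 probe set past the filter, 5 had the same sign on all of them for the genotype difference in LSK and 5 in MP. The exceptions were Txnip and Foxo1 in LSK and Foxo1 and Foxo3 in MP.

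The genes of the 10 that parted by genotype were counted beside the share of all genes. At least 2-fold in LSK were 0 of 10, where 0.949% of all genes were, and the nearest to that line was Btg1 at 0.51. In MP 1 of 10 was, Ddit4, where 0.563% of all genes were, and the nearest below the line was again Btg1, at 0.71. At least 1.5-fold were 0 of 10 in LSK, where 4.07% of all genes were, and 2 of 10 in MP (Ddit4 and Btg1), where 4.81% were. With the median over all probe sets of a gene, only Ddit4 remained in MP. Beyond 2 spreads lay 4 of the 20 probe sets in LSK (Ddit4 and the 3 of Btg1) against 9.47% of all probe sets, and 4 of 20 in MP (Ddit4, 2 of Btg1 and, on the lower side, 1416981_at of Foxo1) against 10.5%. Probe sets of 1 gene read the same RNA, so these 20 are not independent.

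The median genotype difference of the 10 genes was 0.28 in LSK, beside -0.02 over all genes past the filter, and 0.01 in MP, beside -0.05. With the median over all probe sets of a gene it was 0.12 in LSK and -0.01 in MP. In LSK 9 of the 10 had a value above 0, where 46.8% of all genes did, and this number was also 9 after quantile normalization and after cyclic loess. With the median over all probe sets of a gene, Tob1 (-0.03) was below 0 as well. In MP 6 of 10 were above 0, where 40.3% of all genes were, and Txnip and Foxo3 (both within 0.03 of 0) moved above 0 under either normalization. Higher without Smo in both populations were 5 of 10 (Tsc22d3, Foxo1, Btg1, Btg2 and Tob1), and 26.6% of all genes. Apart from Ddit4, the MP values ran from -0.13 (Per1) to 0.71 (Btg1).

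**Figure D2:**
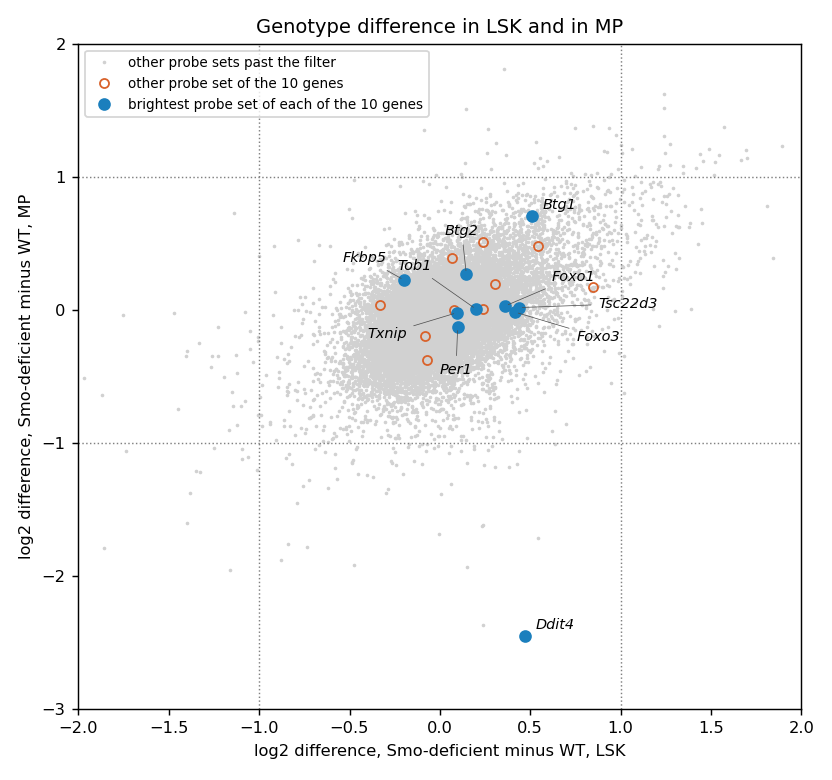
Log2 difference between Smo-deficient and WT arrays in LSK (horizontal) and in MP (vertical) for the 22518 probe sets past the filter, of which 12 lie outside the axes. Filled points are the brightest probe set of each of the 10 genes, open points their other probe sets past the filter, and dotted lines mark 2-fold. Ddit4 lies at 0.47 and -2.45, apart from the other 9 genes, and Btg1 lies highest of the 10 on both axes.

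Most of the 10 genes were higher in LSK than in MP. In the WT pool 9 of 10 were above 0, where 47.8% of all genes were, and Ddit4 was the exception at -0.03. In the Smo-deficient pool 10 of 10 were, where 54.4% of all genes were. Control transcripts also read higher on the LSK arrays. The hybridisation spikes did so by 0.08 ± 0.08 in WT and 0.49 ± 0.09 in the Smo-deficient pool (SD over 9 probe sets), and the poly-A spikes, bacterial transcripts that go through the labelling with the sample, by 0.44 ± 0.25 and 0.59 ± 0.18 (SD over 12 probe sets). The medians of the 10 genes were 0.47 in WT and 0.67 in the Smo-deficient pool, beside -0.01 and 0.04 over all genes past the filter. The part of the spike shift in the values of the 10 genes was not tested. The 9 genes without Ddit4 were above 0 in both pools, against 39.6% of all genes, and quantile normalization and cyclic loess left these signs as they were. With the median over all probe sets of a gene in place of the brightest, Txnip in WT and Fkbp5 in the Smo-deficient pool fell below 0.

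The sizes were modest. At least 2-fold in WT were 0 of 10, where 4.88% of all genes were, with Btg2 nearest to the line at 0.81. In the Smo-deficient pool 1 of 10 was, Ddit4, where 5.01% were, and Tob1 was nearest below the line at 0.92. At least 1.5-fold were 2 of 10 in WT (Btg2 and Tob1), where 13.4% of all genes were, and 6 of 10 in the Smo-deficient pool (Ddit4, Per1, Foxo1, Foxo3, Btg2 and Tob1), where 14.5% were. The latter number was 3 after quantile normalization (Ddit4, Foxo1 and Tob1), 5 after cyclic loess and 4 with the median over all probe sets of a gene. The medians of the 10 genes stood beside -0.01 in WT and 0.04 in the Smo-deficient pool over all genes. With the median over all probe sets of a gene, the median of the 10 was 0.25 in WT and 0.46 in the Smo-deficient pool.

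For the genotype difference in LSK minus that in MP, 1 of 10 was at least 2-fold, Ddit4, where 0.428% of all genes were. The nearest below the line was Foxo3 at 0.43. At 1.5-fold it was also 1 of 10, where 3.51% of all genes were. Above 0 were 7 of 10, where 59.8% of all genes were, and Fkbp5, Btg1 and Btg2 were below 0. Of the 7 genes with more than 1 probe set past the filter, 4 had the same sign on all of them. The exceptions were Tsc22d3 (-0.32 to 0.42), Btg1 (-0.20 to 0.68) and Btg2 (-0.12 to 0.08). With the median over all probe sets of a gene, 6 were above 0, and Tsc22d3, Btg1 and Tob1 changed sign. After quantile normalization 6 were above 0, and Txnip changed sign.

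**Figure D3:**
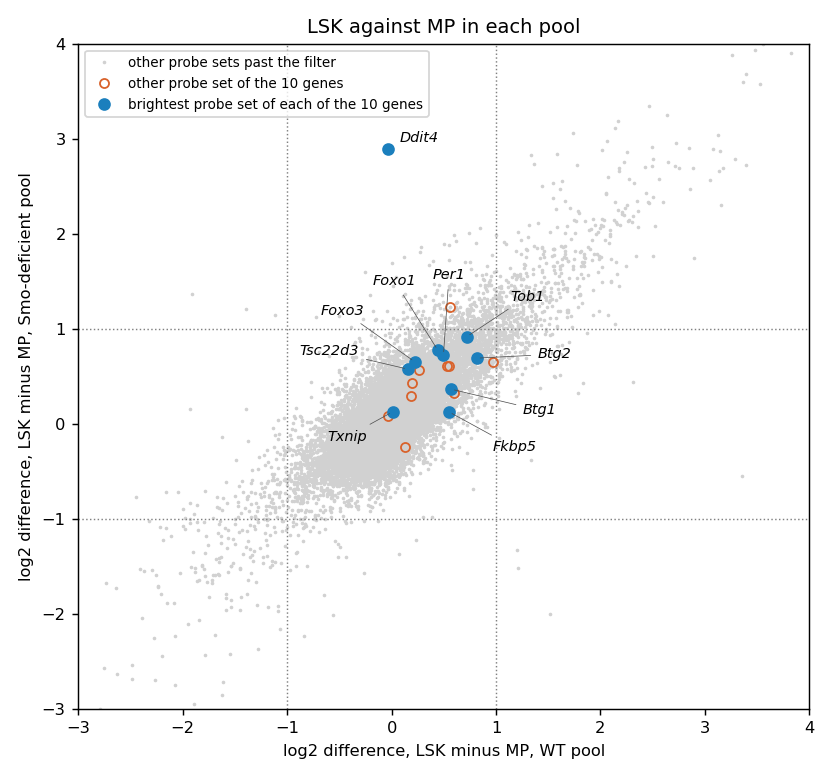
Log2 difference LSK minus MP in the WT pool (horizontal) and in the Smo-deficient pool (vertical), with points as in the plot of genotype differences, and 7 of the 22518 probe sets outside the axes. The 9 genes other than Ddit4 lie between 0.01 and 0.81 in WT and between 0.13 and 0.92 in the Smo-deficient pool, and Ddit4 lies at -0.03 and 2.89.

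Genes with a profile like that of Ddit4 were ranked by the Euclidean distance between log2 profiles over the 4 arrays, each centred on its own mean. Of 11903 genes, the nearest were Tgm2 (distance 1.23), the condensin subunit gene Ncapg (1.26), the sialomucin gene Podxl (1.31), the inflammatory caspase gene Casp4 (1.31) and Pik3r1 (1.37), the regulatory subunit gene of PI3-kinase. The median distance over all genes was 2.24, so none of the 5 was a close match. The other 9 members were at 1.85 (Tob1) to 2.43 (Btg1).

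On the probe sets ranked, Ncapg and Pik3r1 had a value above 0 for the genotype difference in LSK and below 0 in MP, as Ddit4 did. Ncapg gave 0.06 in LSK and -1.31 in MP, and Pik3r1 gave 0.25 and -0.75. Other probe sets of both genes gave smaller differences in MP, -0.41 for Ncapg and -0.15 and -0.32 for Pik3r1. In LSK the same other probe sets gave -0.25 for Ncapg, opposite in sign, and 0.41 and -0.07 for Pik3r1. Among the 35 genes at least 2-fold lower in Smo-deficient MP, 7 were above 0 in LSK, Ddit4 among them, and 9 were also at least 2-fold lower in LSK.

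**Figure D4:**
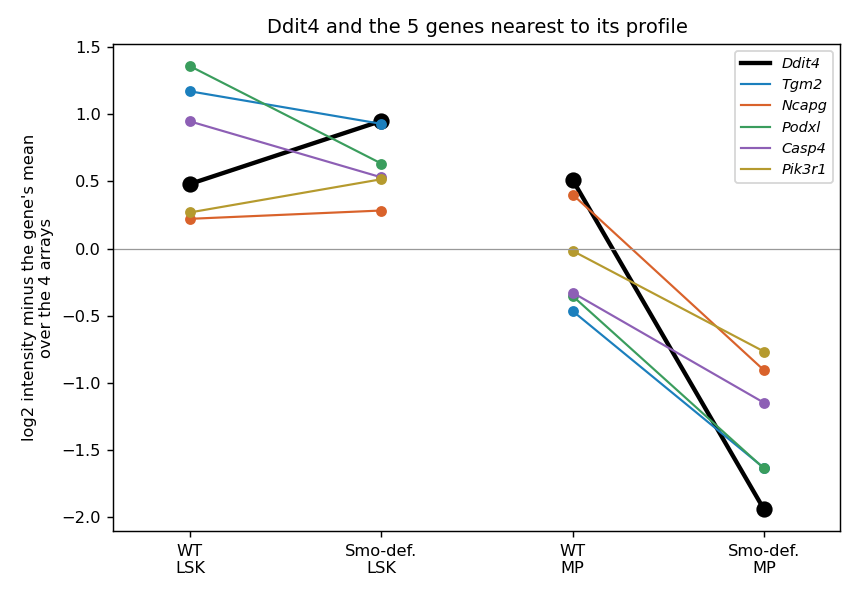
Log2 intensity minus the gene's own mean over the 4 arrays for Ddit4 (black) and the 5 genes with the nearest profiles, 1 point per array. The lowest point of each of the 6 genes is Smo-deficient MP, and Ddit4 has the largest step from WT MP, -2.45, against -0.75 to -1.31 for the others.

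Ddit4 lies on chromosome 10, as do Foxo3 and Btg1. Its 4 nearest measured protein-coding neighbours on each side, in RefSeq order, were read as well. In MP their genotype differences ran from -0.24 (Mcu, the mitochondrial calcium uniporter) to 0.07 (Spock2), and in LSK from -0.28 (Spock2) to 0.18 (Anapc16), so none of these 8 genes shared the low value of Ddit4. Oit3 did not pass the filter, at 6.36 to 6.43. Pla2g12b (7.17 to 7.56) and Chst3 (7.45 to 7.62) read near the filter level of 7.23. These dim genes had less room to show a fall.

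The genes around the 10 were read through 10 lists of pathway members, none of which holds 1 of the 10. Of their 261 symbols, 242 were measured and 219 passed the filter. At least 2-fold between genotypes were 5 of the 219 in LSK, 2.28%, and 2 in MP, 0.913%, beside 0.949% and 0.563% of all genes. LSK against MP was tested for these genes with limma over all 22518 probe sets, with the pool as a block. Of all genes 16.4% rose in LSK and 7.54% fell at a Benjamini-Hochberg adjusted p under 0.05. The limma counts of each list below are to be read beside these 2 shares. Of all probe sets 22.3% passed, and of these 67.7% were higher in LSK, and 53.6% after quantile normalization. This test has 2 pairs of arrays, and the pools are also the genotypes.

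FoxO factors and targets rose in LSK more often than they fell, with 17 and 2 of 33 tested genes with limma. Among those that rose were Klf4 (log2 difference 1.07 ± 0.12 SE, adjusted p = 0.00213), the CDK inhibitor gene Cdkn1a (1.04 ± 0.13, adjusted p = 0.00285) and Pik3ip1 (1.04 ± 0.11, adjusted p = 0.00165), an inhibitor of PI3-kinase. The stress gene Gadd45a fell by 0.94. Without the pool as a block 4 rose and 1 fell.

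Between genotypes the FoxO list had a median of 0.22 in LSK and 0.14 in MP. Above 0 were 28 and 24 of 33 genes, where 46.8% and 40.3% of all genes were. At least 2-fold higher were the interleukin receptor gene Il7r (1.21) and the repressor gene Bcl6 (1.08) in LSK and Bcl6 (1.01) in MP. The next in size were Sesn3 (0.71) in LSK, and Il7r (0.63) and Pik3ip1 (0.60) in MP. Both Il7r and Bcl6 were dim in the WT pool. Bcl6 read log2 levels of 7.17 in WT LSK and 7.16 in WT MP, just below the filter level. It read 8.26 and 8.17 in Smo-deficient LSK and MP. Il7r read 7.27 in WT LSK and 7.36 in WT MP, just above the filter level, and 8.48 and 7.99 without Smo. The sizes of their differences thus rest on WT signal near that level. Both Il7r and Bcl6 are also known as lymphoid genes.

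The receptor gene Nr3c1, named here for its role and not by size, was at log2 levels of 10.72 (WT) and 11.03 (Smo-deficient) in LSK, and 11.14 (WT) and 11.12 (Smo-deficient) in MP. In MP it differed between genotypes by -0.03, and its other probe sets by -0.18 and 0.23, on the arrays where Ddit4 differed by -2.45. Of 28 tested genes of the glucocorticoid list, 10 rose in LSK and 4 fell with limma, and 2 and 0 did so without the block. Rgs2, a regulator of G protein signalling, rose by 0.97 ± 0.06 (SE, adjusted p = 0.000278). The metallothionein genes Mt2 and Mt1, which zinc also induces, fell by 2.41 and 2.24, though another Mt1 probe set gave -0.33 and did not pass.

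Between genotypes the glucocorticoid list had medians of 0.32 in LSK and 0.14 in MP. At least 2-fold were Mt1 (-1.87), Mt2 (-1.74) and Cebpd (1.17) in LSK, and Mt2 (-1.06) in MP. Another probe set of Mt1 gave -0.09 in LSK and another of Cebpd gave 0.23.

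The partners of Ddit4 in mTORC1 control, named here for their role, differed little between genotypes. In MP the differences were 0.06 for Tsc1, -0.28 for Tsc2, -0.09 for Rheb, the GTPase that activates mTORC1, and -0.10 for Mtor. Of 31 genes of the PI3K, AKT and mTORC1 list 4 rose in LSK over MP and 3 fell with limma, beside 16.4% and 7.54% of all genes. After quantile normalization 7 fell. Between genotypes 0 were 2-fold in either population, beside 0.949% of all genes in LSK and 0.563% in MP. The largest differences between genotypes in MP were -0.75 for Pik3r1 and 0.71 for Pik3cd, a catalytic subunit gene, while in LSK Rictor (0.72, and 1.08 on another probe set), a subunit of mTORC2, was largest. Another probe set of Pik3cd gave 0.11 in MP.

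In the hypoxia and integrated stress response lists no gene was 2-fold between genotypes, where 0.949% of all genes in LSK and 0.563% in MP were. In lists this short, 0 is near those shares. The part of hypoxia and of nutrient stress in the level of Ddit4 was not tested. The hypoxia list had medians of 0.10 in LSK and 0.01 in MP over 21 genes, with the oxygen-sensing hydroxylase gene Egln3 at 0.74 and 0.92 (0.23 and 0.76 on another probe set) and the growth factor gene Vegfa at 0.11 and -0.43 (-0.10 and -0.08 on another probe set). The integrated stress response list had medians of 0.00 and -0.05 over 23 genes, with Nupr1 (-0.84 in LSK) and Eif2ak2 (-0.67 in MP) largest. Another probe set of Nupr1 gave -0.41 and another of Eif2ak2 -0.26. In LSK over MP 5 of 21 hypoxia genes rose and 0 fell with limma, led by Ndrg1 (1.36 ± 0.09 SE, adjusted p = 0.000313), of which 1 probe set of 5 gave 0.01. For the stress list 6 of 23 rose and 2 fell. Of all genes 16.4% rose and 7.54% fell. After quantile normalization 3 hypoxia genes rose and 1 fell, and 5 stress genes rose and 5 fell.

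Genes of the thioredoxin, arrestin-domain and glucose-sensing list, the surroundings of Txnip, rose in LSK in 8 of 19 cases and fell in 5 with limma. The glucose transporter gene Slc2a1 rose by 1.43 ± 0.15 (SE, adjusted p = 0.00146) and Arrdc3, a relative of Txnip, by 0.88 ± 0.13 (adjusted p = 0.00537). Between genotypes the medians were 0.02 in LSK and -0.00 in MP. At least 2-fold were 0 genes, beside 0.949% of all genes in LSK and 0.563% in MP.

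Of 15 genes of the BTG and TOB family and the CCR4-NOT complex, 2 rose in LSK with limma and 0 fell, beside 16.4% and 7.54% of all genes. The 2 that rose were Cnot6l (0.64 ± 0.08 SE, adjusted p = 0.00335), a deadenylase gene, and Tob2 (0.42 ± 0.11, adjusted p = 0.0334), whose other probe sets ran from -0.37 to 0.27. The medians between genotypes were 0.04 in LSK and -0.09 in MP. Pan3 (0.85 in LSK) and the arginine methyltransferase gene Prmt1 (-0.85 in MP) were largest.

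Of 18 circadian clock genes 5 rose in LSK with limma and 0 fell. The stem cell factor gene Hlf, which is also 1 of the stem cell markers used here, led with 2.95 ± 0.16 (SE, adjusted p = 0.000189), and Nr1d2 gave 0.88 ± 0.11 (adjusted p = 0.00269). Between genotypes the medians were 0.12 and 0.01, with Nfil3 (0.94 in LSK) and Per3 (-0.40 in MP, 0.10 on another probe set) largest. At least 2-fold were 0 genes, beside 0.949% of all genes in LSK and 0.563% in MP. Without the pool as a block, the genes that rose numbered 1 in the PI3K, AKT and mTORC1 list, 1 in the hypoxia list, 2 in the stress list, 3 in the thioredoxin list, 1 in the BTG and TOB list and 2 in the clock list.

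**Figure D5:**
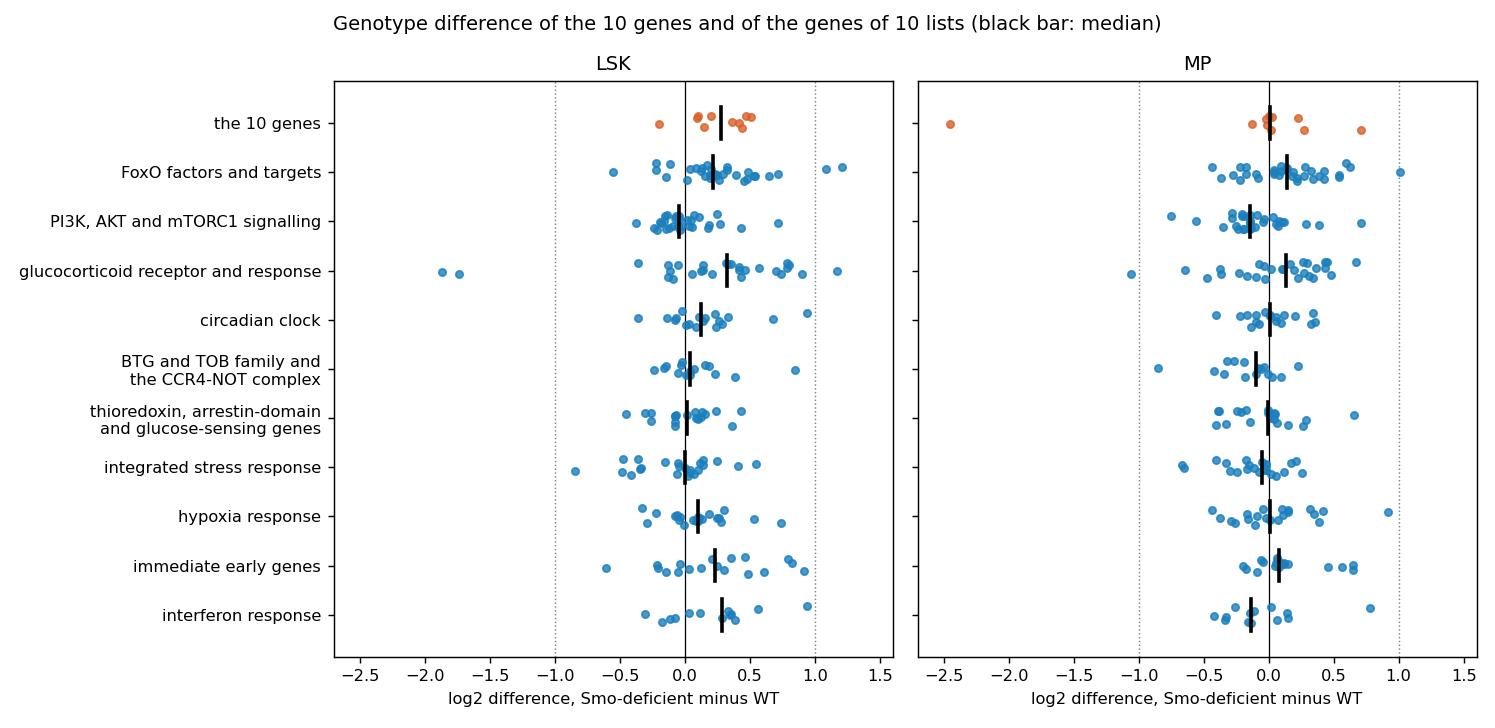
Log2 difference between Smo-deficient and WT arrays in LSK (left) and MP (right) for the 10 genes and for the genes past the filter of 10 lists, 1 point per gene. Black bars are medians and dotted lines mark 2-fold. Ddit4 at -2.45 in MP is the lowest point of all rows in either population.

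Markers of other cell types differed between the LSK arrays, on which the brightest probe sets of Btg1, Foxo1 and Foxo3 were higher without Smo. Of all genes 46.8% were higher in Smo-deficient LSK. Of neutrophil markers 8 of 8 and of macrophage markers 8 of 8 were higher there, with medians of 0.77 and 0.67. Of B cell markers 6 of 6 past the filter were, with a median of 0.58, and of megakaryocyte markers 0 of 7, with a median of -0.67. LSK and stem cell markers were higher in 6 of 6 cases (median 0.54), mature erythroid markers in 3 of 3 (0.80), mast cell and basophil markers in 3 of 5 (0.23), T and NK cell markers in 2 of 3 (0.10) and stroma and endothelium markers in 0 of 3 (-0.25). Summed neutrophil marker intensity was 74292 (WT) and 117684 (Smo-deficient) in LSK, and 89948 (WT) and 102441 (Smo-deficient) in MP. Summed macrophage marker intensity was 3572, 6895, 6243 and 10336 in the same order. B cell markers summed to 2023, 2976, 1939 and 2335, and megakaryocyte markers to 28404, 17613, 12932 and 12471. Below the filter level on all arrays were Ebf1 of the B cell list and Gp6 of the megakaryocyte list, and 0 genes of the neutrophil and macrophage lists. The part of these cells in the values of the 10 genes was not tested. In MP the marker medians ran from -0.07 (megakaryocyte) to 0.36 (LSK and stem cell). Of all genes 40.3% were higher in Smo-deficient MP. So were 8 of 8 neutrophil, 5 of 5 mast cell and basophil and 5 of 6 LSK and stem cell markers. The numbers were 4 of 8 for macrophage, 4 of 6 for B cell and 3 of 7 for megakaryocyte markers. They were 2 of 3 for T and NK cell, 2 of 3 for mature erythroid and 0 of 3 for stroma and endothelium markers. Single genes ranged more widely, from -0.24 to 1.09 among macrophage markers and from -0.54 to 0.95 among LSK and stem cell markers. Megakaryocyte markers ran from -0.34 to 0.73.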

How the data were processed

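The deposited table holds 1 intensity value for each of 45101 probe sets on 4 arrays. The authors made it with RMA, per the submitters' processing notes, which name no version. RMA usually gives log2 values, but the deposited intensities run from 12.3 to 44290.5 and were read as linear, so log2 was taken without a pseudocount. Quantile normalization may remove a change shared by most genes.

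After 64 control probe sets were set aside, probe sets with a mean log2 level above the 50th percentile were kept, which left 22518 probe sets of 11904 genes. Symbols came from the platform's annotation table. Each gene was read on its brightest probe set by mean. The spread used 20 bins of mean level. A genotype is 1 pool, so its differences carry no p-value, and precision is limited by there being 4 arrays. LSK was tested against MP with limma 3.58.1 (lmFit, eBayes with trend, two-sided, pool as a block, 1 residual degree of freedom), for pathway and marker genes only. The pairing comes from the sort: both populations of a genotype came from 1 pool of mice. Its p-values measure the spread between 2 pools of different genotype. The test and the spread were tested on simulated data.

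The 10 genes, the lists and the tests were chosen with earlier results of these data known. Named beside the 10 genes were Smo, up to 4 genes per list with the largest differences past the filter, and the 5 genes nearest to Ddit4. Nr3c1, Tsc1, Tsc2, Rheb, Mtor, and the neighbours of Ddit4 were named after their values were seen. Alternatives were quantile normalization, cyclic loess, log2 of the value plus 32, the median over a gene's probe sets, other fold thresholds, no block, no filter and no trend.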

Additional observations from a re-analysis of the deposited data

Results flagged for a closer look

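Ddit4 stood out because its genotype difference had opposite signs in the 2 populations, 0.47 in LSK and -2.45 in MP, each beyond 1 spread of its own comparison. The difference between them was 2.92 on the log2 scale. It rests on 1 probe set and 1 array per group, and the difference was not tested.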

How the results depend on the processing

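For the 10 genes in 5 comparisons, 50 values were recomputed under each of 4 settings. All 50 stayed within 1 spread of the reported value after quantile normalization, cyclic loess and log2 of the value plus 32. With the median over all probe sets of a gene 37 did and 13 moved further, by up to 0.71 (Tsc22d3, genotype difference in LSK minus that in MP). Ddit4 in MP ranged from -2.45 to -2.33. The numbers of genes at least 2-fold were the same under those 4 settings and at 3-fold. At 1.5-fold they were 2 for genotype in MP (Ddit4 and Btg1), 2 for LSK against MP in WT (Btg2 and Tob1) and 6 in the Smo-deficient pool. In an alternative chosen after seeing the data, the number at 1.5-fold was 1 in MP with the median over probe sets, and 3 for LSK against MP in the Smo-deficient pool after quantile normalization. The 1.5-fold numbers otherwise stayed within 1.5 times. Of all probe sets 5013 passed limma for LSK against MP, and 1058 without the pool as a replicate block. The other settings of that test gave 4240 to 5721. The replicate numbers of the labels pair nothing, since each group has 1 array. No replicate could be left out. Signal near background limits the probe sets below the filter.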

Other observations

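Immediate early genes, which respond within minutes to signals and to cell handling, were higher in LSK than in MP. Of 18 tested genes 14 rose and 0 fell with limma (pool as a block), and 4 rose without the block. The orphan receptor gene Nr4a1 led with a log2 difference of 2.24 ± 0.10 (SE, adjusted p = 0.000116), followed by Dusp2 (1.04 ± 0.12, adjusted p = 0.00199) and Ier3 (1.03 ± 0.09, adjusted p = 0.000739). Between genotypes the medians of the 18 genes were 0.23 in LSK and 0.08 in MP. At least 2-fold were 0, beside 0.949% of all genes in LSK and 0.563% in MP. Fosl2 (0.91) and Ier3 (0.82) were largest in LSK, though another Fosl2 probe set gave -0.03.

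Interferon response genes were read because every mouse had received polyI:C. Of 13 tested genes 7 rose in LSK over MP with limma and 0 fell, led by Oasl2 (2.70 ± 0.14 SE, adjusted p = 0.000141) and Rtp4 (1.53 ± 0.14, adjusted p = 0.00105), and 5 rose without the block. Between genotypes the medians were 0.29 in LSK and -0.14 in MP, with Ifi27l2a at 0.94 and 0.78.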
